A study of Mus musculus with 6 samples.

Results

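Drop-seq libraries from 2 spinal cord samples of SOD1-G93A mice given Necrostatin-1s (SOD1-Nec) were set against 2 from wild-type mice given vehicle (WT-Veh). In Drop-seq, beads mark the RNA of each cell with a shared barcode and each captured molecule with a unique molecular identifier (UMI). A barcode, taken as 1 cell, was retained if it had 200 or more detected genes and no more than 20% of its UMIs from mitochondrially encoded genes. It was dropped where the neuronal RNAs Snhg11, Miat, Ryr2, Unc80, Myt1l and Chd5 together gave 2 or more UMIs, because 1 wild-type library was rich in neurons. This left 2245 of the 14168 barcodes in the 4 libraries. The series holds 6 libraries with 21919 barcodes, of which 3055 passed the same rule. The remaining 2 libraries, from SOD1-G93A mice given vehicle (SOD1-Veh), took no part in the contrast. They added to the estimate of the spread, and their values are given beside the others. Cords were digested with Accutase, an enzyme mix, freed of myelin and enriched for live cells on a density gradient, per the labels. Neither age nor strain nor drug dose is stated in the sources used here. Each library has a sample number of its own in the labels, but whether each is a separate animal is not stated, and the p-values therefore measure only the spread between libraries. The groups analysed here include no wild-type cords given Necrostatin-1s, so genotype and drug cannot be told apart in this contrast.

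Mice of the SOD1-G93A type carry a mutant human SOD1 gene and lose motor neurons, and they are a standard model of amyotrophic lateral sclerosis. Necrostatin-1s blocks the kinase activity of RIPK1, which relays signals of the TNF receptor toward inflammation and toward necroptosis, a form of lytic cell death. Microglia, the resident macrophages of the cord, take on a disease-associated state in degenerating tissue, in which lipid-handling and lysosomal genes such as Apoe and Lpl go up and genes of the resting state such as Tmem119 go down.

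The WT-Veh libraries kept 469 and 383 barcodes with 507152 and 398305 UMIs, and the SOD1-Nec libraries kept 620 and 773 barcodes with 506675 and 636279 UMIs. Barcodes were shallower in SOD1-Nec, where the median was 537 and 527 UMIs against 690 and 692 in WT-Veh. The neuronal rule dropped 8.93% and 30.9% of otherwise passing barcodes in WT-Veh, and 6.20% and 2.64% in SOD1-Nec. Of the retained barcodes, 67 and 60 in WT-Veh and 58 and 59 in SOD1-Nec held 1 neuronal UMI, just inside that limit, while 5 and 20, and 15 and 10, were dropped with exactly 2. Of barcodes past the gene minimum, the mitochondrial limit took out 31.3% and 31.6% in WT-Veh, and 25.1% and 19.1% in SOD1-Nec. Among retained barcodes, 1 barcode sequence occurred in more than 1 of the 4 libraries. In barcodes with under 100 detected genes, read as RNA free in the suspension, haemoglobin made up 55.1% and 51.4% of UMIs in WT-Veh and 68.8% and 77.7% in SOD1-Nec.

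Over all retained barcodes, RNA of Sod1 and of Lpl rose in the treated mutant cords with edgeR, the main test, which called no gene lower. Sod1 encodes superoxide dismutase 1, the enzyme mutated in these mice, and checks the genotype labels. Levels below are normalised UMI counts (CPM), scaled by edgeR to a common library size. Sod1 stood at 274 and 190 CPM in WT-Veh, at 4363 and 5958 in SOD1-Veh, and at 3838 and 4628 in SOD1-Nec. The mutant libraries lay far above both wild-type libraries, with no overlap. The fitted change from WT-Veh to SOD1-Nec was 4.18 ± 0.29 on the log2 scale (SE; 18.2-fold, edgeR adjusted p = 1.36e-05). The tables list Sod1 once, so reads of the transgene and of the mouse gene cannot be told apart. Lpl encodes lipoprotein lipase, which frees fatty acids from lipoproteins. It stood at 17.4 and 2.57 CPM in WT-Veh, at 108 and 89.1 in SOD1-Veh, and at 162 and 163 in SOD1-Nec, a change of 3.92 ± 0.45 (15.1-fold, edgeR adjusted p = 0.00301). The WT-Veh level of Lpl rested on 8 and 1 UMIs, against 81 and 97 in SOD1-Nec. Its change was 5.87 without WT-Veh 1 and 3.19 without WT-Veh 2, and stayed called both times, and DESeq2 gave it 3.96 with no adjusted p.

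These were 2 of 6911 genes tested with edgeR's quasi-likelihood test at a Benjamini-Hochberg adjusted p below 0.05, 0.0289% of genes higher and 0% lower. An unadjusted p below 0.05 was reached by 338 genes on the higher side (4.89%) and 401 on the lower (5.8%), and DESeq2 called 23 higher and 32 lower. An exact permutation test of 2 libraries against 2 cannot go below p = 0.333. Both SOD1-Nec libraries lay above both WT-Veh libraries for 1454 genes (21%) and below them for 1481 (21.4%), so that a gene whose groups do not overlap is a common event here. The plot of fold change against p for all barcodes shows Sod1 and Lpl apart from the other genes.

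**Figure D1:**
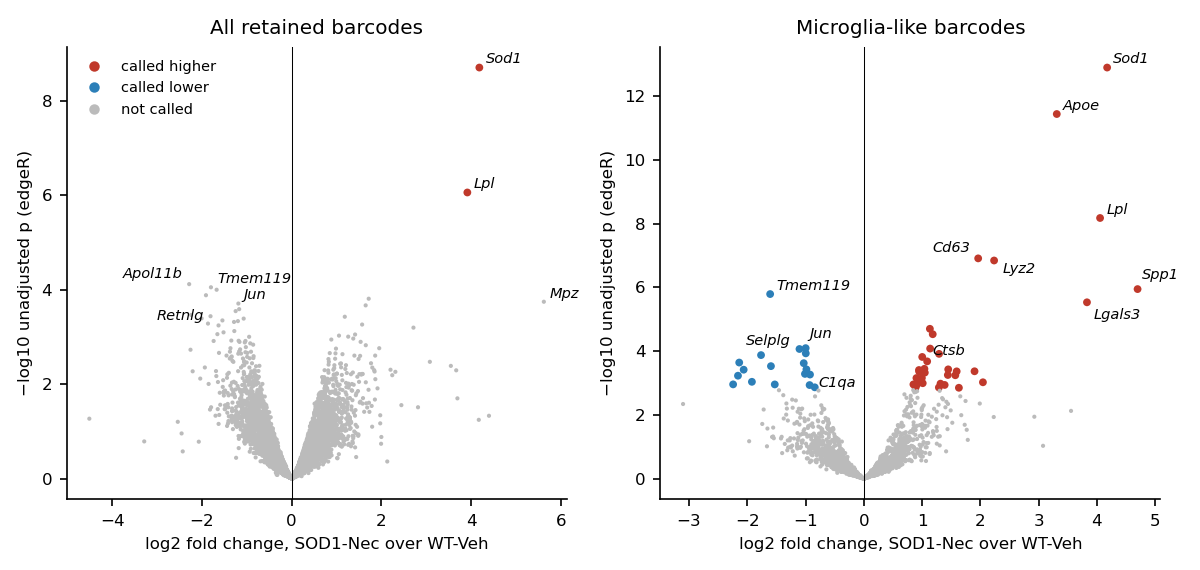
Each point is a tested gene, with the edgeR log2 fold change of SOD1-Nec over WT-Veh on the x axis and −log10 of the unadjusted p on the y axis, for all retained barcodes (left) and microglia-like barcodes (right). Red points were called higher and blue points lower at an adjusted p below 0.05: 2 and 0 genes on the left, 36 and 18 on the right.

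Several gene groups lay on 1 side of zero over all barcodes with few or no calls, and their values are given as a description. All 13 tested neutrophil markers were below zero, with a median log2 change of -0.86 against 0.01 for all genes, and 12 of them had lower values in both SOD1-Nec libraries than in either WT-Veh library. Retnlg, a secreted protein of mature neutrophils, stood at 3317 and 1271 CPM in WT-Veh and at 818 and 495 in SOD1-Nec (-1.81 ± 0.38, edgeR adjusted p = 0.166). The 2 groups did not overlap, but the WT-Veh libraries differed widely between themselves. Of 30 homeostatic microglia genes 27 were below zero (median -0.63), and of 27 immediate-early genes, which switch on within minutes of a stimulus or of tissue dissociation, 25 were below zero (median -0.66). Jun, a subunit of the transcription factor AP-1, stood at 2676 and 3234 CPM in WT-Veh and at 1251 and 1373 in SOD1-Nec (-1.17 ± 0.24, adjusted p = 0.162). On the other side of zero, 12 of 13 B cell markers (median 0.86) and 32 of 33 cell division genes (median 0.44) were above zero. Top2a, a topoisomerase of dividing cells, stood at 228 and 239 CPM in WT-Veh, at 438 and 307 in SOD1-Veh, and at 553 and 508 in SOD1-Nec (1.18 ± 0.25, adjusted p = 0.166). Pax5, a transcription factor that fixes B cell identity, had 16 and 27 UMIs in WT-Veh and 91 and 93 in SOD1-Nec (1.72 ± 0.33, adjusted p = 0.148). None of these 4 genes passed the test with edgeR in the sums over all barcodes, where fewer cells of a type and less RNA per cell cannot be told apart.

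The target pathway of the drug gave no call. Of 26 genes of the RIPK1 and necroptosis pathway, 18 had enough UMIs to be tested, with a median of 0.05 and none called. Ripk1 itself stood at 36.9 and 20.5 CPM in WT-Veh, at 36.7 and 21.1 in SOD1-Veh, and at 20.1 and 28.5 in SOD1-Nec (-0.25 ± 0.47, edgeR adjusted p = 0.893). Its groups overlapped, and the change was 0.28 without WT-Veh 1. These levels came from 8 to 17 UMIs per library, so that a moderate difference was not detectable at this depth. Ripk3 and Mlkl, which carry the necroptotic signal on from RIPK1, were too rare to be tested.

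Of the 16 clusters formed over the 3055 barcodes, those led by the markers of a cell type were given its name with the ending -like, and 7.68% to 12.1% of barcodes in the 4 libraries stayed without one. Besides glia, cells of marrow and blood type were abundant: neutrophil-like, monocyte-like, B cell-like and erythroid-like barcodes. Clusters were formed with genes that differ between the groups, so that the shares are a description and were not tested. B cell-like barcodes made up 10.7% and 8.88% of WT-Veh, 14.7% and 17.8% of SOD1-Veh, and 15.3% and 16.6% of SOD1-Nec. Neutrophil-like barcodes were 19.6% and 15.9% of WT-Veh against 12.9% and 11.0% of SOD1-Nec. Within them the cluster led by genes of mature neutrophils (Retnlg and Cxcr2) was 32.6% and 21.3% in WT-Veh and 17.5% and 10.6% in SOD1-Nec. Microglia-like barcodes were 23.2% and 25.8% of WT-Veh against 19.0% and 21.5% of SOD1-Nec, and erythroid-like barcodes 12.4% and 10.7% against 15.6% and 15.9%. Monocyte-like barcodes were 10.4% and 9.14% of WT-Veh and 12.4% and 11.0% of SOD1-Nec. Oligodendrocyte-like barcodes were 5.97% and 6.01% against 7.10% and 7.24%. Astrocyte-like barcodes were 6.61% and 8.62% of WT-Veh, 6.28% and 4.21% of SOD1-Veh, and 1.94% and 1.94% of SOD1-Nec. With a coarser clustering (Leiden resolution 0.5 in place of 1) the cluster named astrocyte-like held 12.8% and 17.5% of WT-Veh and 11.9% and 10.9% of SOD1-Nec. Of its 390 barcodes, 133 were astrocyte-like at resolution 1 and 255 came from an unnamed cluster. The leading genes of that unnamed cluster include Ccl5, Trbc2 and Nkg7, markers of T or NK cells, and also Olig1. The coarser cluster thus mixes astrocyte-like barcodes with others, and the size of the difference depends on the clustering. The summed level of the astrocyte markers over all barcodes was 4213 and 4346 CPM in WT-Veh, against 4589 and 3923 in SOD1-Nec, and the groups overlapped. Shares did not overlap between WT-Veh and SOD1-Nec for 8 of 11 classes, the unnamed barcodes counted as a class (5 higher and 3 lower in SOD1-Nec). The exceptions were endothelial-like, ependymal-like and skeletal muscle-like barcodes. Skeletal muscle-like barcodes were absent from all 4 libraries, so that class could not differ, and made up 4.45% and 11.7% of SOD1-Veh. With shuffled labels, 2 libraries separate from 2 with a probability of 0.333 for a single class. The shares within a library add up to a fixed total, so the classes are not independent of each other.

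**Figure D2:**
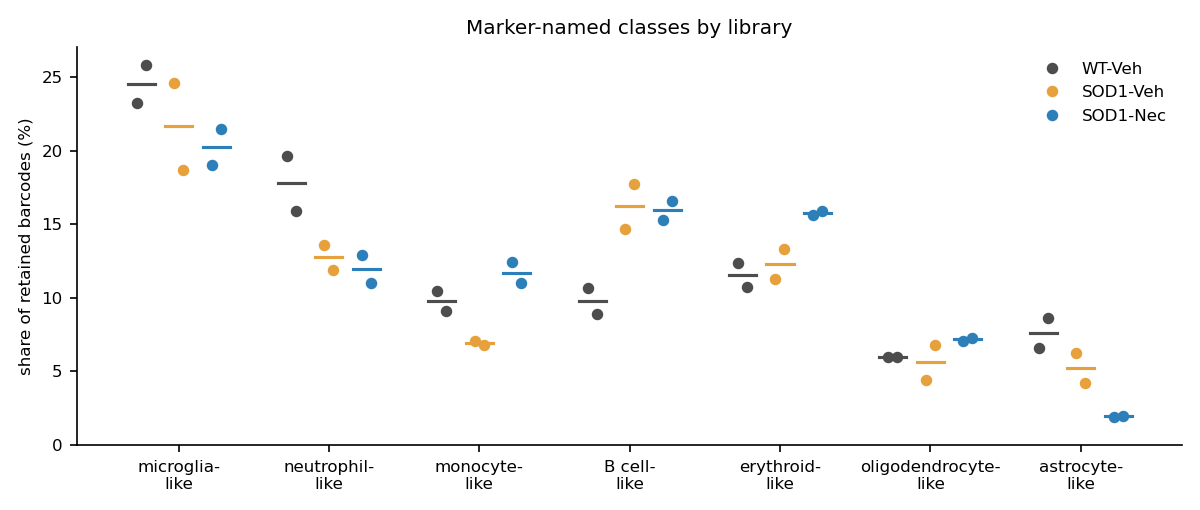
Share of retained barcodes in each marker-named class, in percent, with 1 point per library and a bar at the mean of 2 libraries, for WT-Veh (grey), SOD1-Veh (orange) and SOD1-Nec (blue). The 2 SOD1-Nec libraries lie above both WT-Veh libraries for B cell-like, erythroid-like, monocyte-like and oligodendrocyte-like shares, and below them for neutrophil-like, microglia-like and astrocyte-like shares.

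Microglia-like barcodes gave 54 calls among 1669 genes tested with edgeR on the 6 libraries, and erythroid-like barcodes 40 among 1164. With DESeq2 the counts were 21 and 29, and no test compared the classes. The microglia-like barcodes numbered 109 and 99 in WT-Veh with 85242 and 93190 UMIs, and 118 and 166 in SOD1-Nec with 81206 and 110179 UMIs. All 12 microglia markers were detected in them. Of 1669 genes tested, 36 rose (2.16%) and 18 fell (1.08%). The genes that rose included the lipid carrier Apoe, Lpl and other disease-associated microglia genes, and those that fell included the microglial surface protein Tmem119 and the immediate-early gene Jun. Sod1 rose by 4.18 ± 0.32 on the log2 scale, from 140 and 138 CPM in WT-Veh to 2458 and 2631 in SOD1-Nec (edgeR adjusted p = 2.14e-10). Of the 54 calls, 8 held with each of the 4 libraries left out in turn: Sod1, Apoe, Lpl, Cd63, Lyz2, Tmem119, Lgals3 and Spp1. The other 46 lost their call without at least 1 library, some with little change in fold, and the count of calls fell to 40, 23, 27 and 20 without WT-Veh 1, WT-Veh 2, SOD1-Nec 1 and SOD1-Nec 2. DESeq2 called 13 higher and 8 lower.

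Of 30 disease-associated microglia genes, 21 were tested, 7 rose and none fell, with a median log2 change of 0.78 against 0.02 for all genes tested in this class. The list was 0.47 in the libraries numbered 1 and 0.81 in those numbered 2. Both SOD1-Nec libraries were above both WT-Veh libraries for 16 of the 21, against 23.8% of all genes tested. The share of all genes tested that was called higher was 2.16%. Apoe stood at 964 and 830 CPM in WT-Veh, at 5806 and 5700 in SOD1-Veh, and at 6070 and 11710 in SOD1-Nec. It rose 9.94-fold (3.31 ± 0.29, edgeR adjusted p = 3.07e-09), and both mutant groups lay well above the wild type. In free RNA the order of Apoe was the reverse, at 1187 and 1118 CPM in WT-Veh against 596 and 583 in SOD1-Nec. Haemoglobin took 55.1% and 51.4% of free UMIs in WT-Veh and 68.8% and 77.7% in SOD1-Nec. A larger haemoglobin share lowers the CPM of every other gene, so these free values do not compare Apoe apart from haemoglobin. The part of free RNA in the rise of Apoe was not tested. Lpl had 8 UMIs in WT-Veh 1, none in WT-Veh 2, and 56 and 86 in SOD1-Nec, or 124 and 0 CPM against 936 and 1072, with 412 and 561 in SOD1-Veh. It rose by 4.06 ± 0.50 (adjusted p = 3.74e-06), by 2.97 without WT-Veh 2, and without WT-Veh 1 no wild-type UMI remained.

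Cd63, a tetraspanin of late endosomes and lysosomes, stood at 295 and 442 CPM in WT-Veh, at 1552 and 1589 in SOD1-Veh, and at 1354 and 1546 in SOD1-Nec (1.96 ± 0.28, edgeR adjusted p = 4.83e-05). The 2 mutant groups were close to each other and more than 3 times the wild-type level of Cd63. Spp1, which encodes the secreted phosphoprotein osteopontin, had 0 and 2 UMIs in WT-Veh and 22 and 38 in SOD1-Nec, a ratio of 28.0 per UMI captured (95% interval 7.41 to 236, adjusted p = 0.000317). Lgals3, which encodes the lectin galectin-3, had 3 and 0 UMIs in WT-Veh and 22 and 25 in SOD1-Nec, a ratio of 14.6 (95% interval 4.70 to 73.4, adjusted p = 0.000618). These intervals cover counting error only. The SOD1-Veh libraries held 36 and 4 UMIs of Spp1 and 61 and 23 of Lgals3. Without WT-Veh 1 the change of Spp1 was 3.82 and no wild-type UMI of Lgals3 remained, and without WT-Veh 2 the change of Lgals3 was 2.77 and no wild-type UMI of Spp1 remained. DESeq2 gave Spp1 no adjusted p.

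The protease cathepsin B (Ctsb) and the chemokine Ccl6 were the remaining 2 calls of the list. Ctsb stood at 1865 and 2060 CPM in WT-Veh, at 3879 and 3888 in SOD1-Veh, and at 3896 and 3978 in SOD1-Nec (1.00 ± 0.23, edgeR adjusted p = 0.0151). Replicates of Ctsb were close in every group, yet the adjusted p was 0.0999, 0.0731, 0.0939 and 0.146 without WT-Veh 1, WT-Veh 2, SOD1-Nec 1 and SOD1-Nec 2, where the changes were 0.90, 1.04, 0.98 and 0.97. Ccl6 stood at 326 and 290 CPM in WT-Veh and at 451 and 1048 in SOD1-Nec (1.32 ± 0.36, adjusted p = 0.0396), so that 1 library carried most of it. It was 0.53 without SOD1-Nec 2, and it was no longer called without WT-Veh 1 (1.36) or WT-Veh 2 (1.19). Outside the list, the lysozyme Lyz2 rose from 280 and 277 CPM to 1120 and 1496 (2.24 ± 0.32, adjusted p = 4.83e-05), with 1224 and 654 in SOD1-Veh. The protease inhibitor cystatin B (Cstb) rose from 109 and 194 CPM to 368 and 536 (1.57 ± 0.40, adjusted p = 0.0274), and was not called without WT-Veh 1 (1.20) or SOD1-Nec 2 (1.24). Both SOD1-Nec libraries exceeded both wild-type libraries for Lyz2 and Cstb.

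Other members of the list, among them its receptors, did not pass. Trem2, the lipid-sensing receptor through which microglia enter this state, stood at 1772 and 1908 CPM in WT-Veh, at 1746 and 2019 in SOD1-Veh, and at 1538 and 1771 in SOD1-Nec (-0.15, edgeR adjusted p = 0.828). Its groups differed by about the spread between libraries. The signalling partner of Trem2, Tyrobp, gave 0.21 (adjusted p = 0.703). Csf1, a growth factor of macrophages, gave 1.45 ± 0.47 (adjusted p = 0.0934), and the tetraspanin Cd9 gave 0.57 (0.247). Ftl1, the light chain of the iron store ferritin, stood at 1197 and 1424 CPM in WT-Veh and at 1237 and 1983 in SOD1-Nec (0.31, adjusted p = 0.617), while the SOD1-Veh libraries were at 2921 and 4710. It was -0.10 without SOD1-Nec 2.

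**Figure D3:**
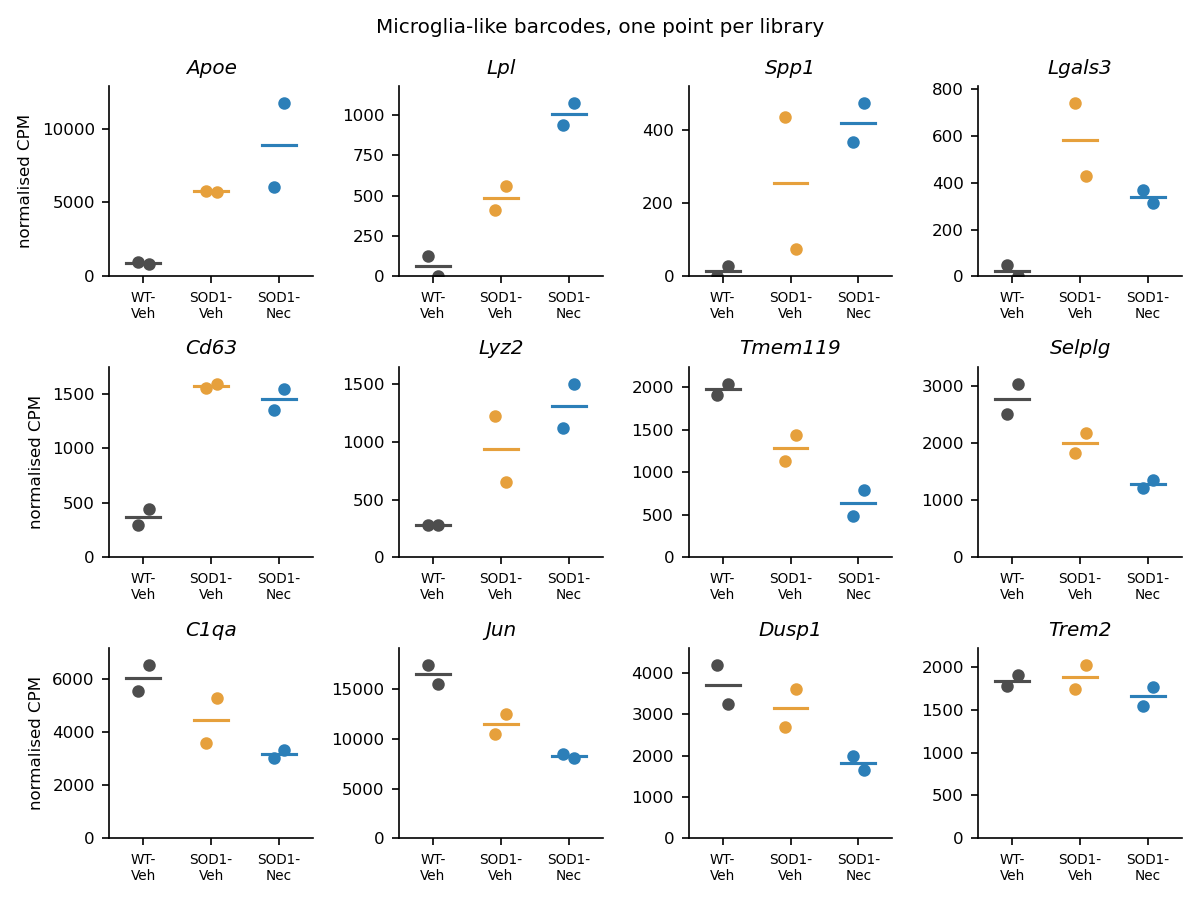
Normalised UMI counts in CPM (y axes, linear from 0) of 12 genes in microglia-like barcodes, with 1 point per library and a bar at the mean of 2 libraries. Apoe, Lpl, Spp1, Lgals3, Cd63 and Lyz2 are higher and Tmem119, Selplg, C1qa, Jun and Dusp1 lower in both SOD1-Nec libraries than in either WT-Veh library, and Trem2, in the last panel, gave an adjusted p of 0.828.

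Among genes of resting microglia, 29 were tested, 3 fell and none rose (median -0.42, with -0.32 in the libraries numbered 1 and -0.60 in those numbered 2), and 19 were lower in both SOD1-Nec libraries, as were 23.8% of all genes tested. The share of all genes tested that was called lower was 1.08%. Tmem119 stood at 1912 and 2032 CPM in WT-Veh, at 1127 and 1439 in SOD1-Veh, and at 485 and 786 in SOD1-Nec. It fell 3.05-fold (-1.61 ± 0.27, edgeR adjusted p = 0.000389), with the SOD1-Veh libraries between the 2 groups. Selplg, the P-selectin ligand and another member of this list, stood at 2503 and 3028 CPM in WT-Veh, at 1830 and 2168 in SOD1-Veh, and at 1221 and 1347 in SOD1-Nec (-1.10 ± 0.24, edgeR adjusted p = 0.0111). Its order was the same as that of Tmem119. Selplg was not called without WT-Veh 2 (-0.99), without SOD1-Nec 1 (-1.07) or without SOD1-Nec 2 (-1.20). Jun was the third member that fell and is described with the immediate-early genes. The purinergic receptor P2ry12 stood at 2192 and 2032 CPM against 1271 and 1322 (-0.70, adjusted p = 0.114) and the fractalkine receptor Cx3cr1 gave -0.42 (0.340).

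Complement genes pointed the same way. All 7 tested members were below zero (median -0.47) and 1 fell, C1qa, a chain of the C1q complex that starts the classical cascade. Among all genes tested in this class 1.08% fell and 51.65% were above zero. C1qa stood at 5565 and 6526 CPM in WT-Veh, at 3612 and 5308 in SOD1-Veh, and at 3026 and 3342 in SOD1-Nec (-0.92 ± 0.24, edgeR adjusted p = 0.0274). Both WT-Veh libraries were above every mutant library. C1qa was not called without WT-Veh 2 (-0.84), without SOD1-Nec 1 (-0.89) or without SOD1-Nec 2 (-1.01). The partner chains C1qb and C1qc gave -0.32 (adjusted p = 0.480) and -0.53 (0.228). Mertk, a receptor with which microglia take up dying cells, fell from 1384 and 1410 CPM to 886 and 599 (-0.93 ± 0.26, adjusted p = 0.0398), a call lost without WT-Veh 1 (-0.98), WT-Veh 2 (-0.95), SOD1-Nec 1 (-1.26) or SOD1-Nec 2 (-0.67).

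Of 24 immediate-early and dissociation genes tested in microglia-like barcodes, 3 fell and none rose (median -0.51, with -0.65 and -0.42 in the libraries numbered 1 and 2), and 18 were lower in both SOD1-Nec libraries, again against 23.8% of all genes. Calls on the lower side were 1.08% of all genes tested in this class. The whole list took 8.29% and 6.95% of microglia-like UMIs in WT-Veh, 6.22% and 7.31% in SOD1-Veh libraries, and 5.02% and 4.68% in SOD1-Nec. Jun stood at 17411 and 15568 CPM in WT-Veh, at 10473 and 12522 in SOD1-Veh, and at 8444 and 8069 in SOD1-Nec (-1.0 ± 0.22, edgeR adjusted p = 0.0111). Both SOD1-Nec libraries of Jun were below every other library. Dusp1, a phosphatase that inactivates MAP kinases, stood at 4182 and 3235 CPM in WT-Veh, at 2679 and 3607 in SOD1-Veh, and at 1990 and 1646 in SOD1-Nec (-1.03 ± 0.26, adjusted p = 0.0201). Csrnp1, a nuclear protein induced by growth signals, had 17 and 16 UMIs in WT-Veh and 2 and 5 in SOD1-Nec (-2.24 ± 0.62, adjusted p = 0.0396). The calls did not hold without single libraries: Jun was -1.07 without SOD1-Nec 1 and -0.98 without SOD1-Nec 2, Dusp1 -0.87 without WT-Veh 1 and -0.92 without SOD1-Nec 2, and Csrnp1 -2.15, -2.41, -1.96 and -2.80 without WT-Veh 1, WT-Veh 2, SOD1-Nec 1 and SOD1-Nec 2. Fos, the partner of Jun in AP-1, stood at 13587 and 10162 CPM against 7173 and 6672 (-0.78 ± 0.23, adjusted p = 0.0508), and the transcription factors Klf2, Atf3 and Egr1 gave -0.73 (0.0979), -0.62 (0.227) and -0.43 (0.329).

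The DNA just before the starts of these genes was searched for 2 motifs that inducible transcription factors bind: the cAMP response element TGACGTCA and the AP-1 site TGANTCA, on both strands, in the 250 bases before each start in the RefSeq table of build GRCm38.p6. The element was present in 4 of the 22 immediate-early genes with a window (18.2%), in 49 of the 1274 tested genes with a window (3.85%) and in 478 of all 27025 genes (1.77%). The AP-1 site was present in 1 of the 22 (4.55%), against 75 of the 1274 (5.89%). The windows of Dusp1, which fell, and of Btg2, an anti-proliferative immediate-early gene (-0.52 ± 0.23, edgeR adjusted p = 0.240), are shown because both hold the element, in capitals, starting at position -143 from the start in Dusp1 (chr17:26508473-26508722, minus strand) and -166 in Btg2 (chr1:134079156-134079405, minus strand). The element was also present in Maff and Ppp1r15a, and it was absent from the windows of Jun and Csrnp1, which fell too. A match describes the letters and is not a measured site.
Dusp1: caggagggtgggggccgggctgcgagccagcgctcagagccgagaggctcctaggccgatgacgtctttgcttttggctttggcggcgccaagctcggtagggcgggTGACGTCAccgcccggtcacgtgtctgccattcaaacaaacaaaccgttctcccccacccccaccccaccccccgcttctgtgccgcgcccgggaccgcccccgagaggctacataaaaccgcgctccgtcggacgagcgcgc
Btg2: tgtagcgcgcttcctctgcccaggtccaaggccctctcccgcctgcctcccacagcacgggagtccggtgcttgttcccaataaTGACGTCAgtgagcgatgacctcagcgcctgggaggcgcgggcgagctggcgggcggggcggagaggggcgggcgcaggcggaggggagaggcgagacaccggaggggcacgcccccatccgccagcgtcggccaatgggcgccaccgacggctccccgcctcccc

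Inflammatory cytokines gave no call. Of 18 tested genes of the TNF, interleukin-1 and NF-kB list none passed with edgeR (median 0.04), 2 reached an unadjusted p below 0.05 on each side (9.65% of all genes on the higher side and 6.77% on the lower), and Tnf was not called by DESeq2. Tnf stood at 358 and 470 CPM in WT-Veh, at 655 and 635 in SOD1-Veh, and at 635 and 424 in SOD1-Nec (0.33 ± 0.32, edgeR adjusted p = 0.657). Il1a stood at 886 and 498 CPM in WT-Veh and at 418 and 474 in SOD1-Nec (-0.61 ± 0.33, adjusted p = 0.347), and Il1b at 171 and 27.7 against 184 and 162 (0.82 ± 0.75, adjusted p = 0.622). The groups overlapped for Tnf and Il1b, and the 2 WT-Veh libraries differed by more than the group means for Il1a. The chemokine Ccl4 stood at 3513 and 2226 CPM in WT-Veh, at 4824 and 7626 in SOD1-Veh, and at 5568 and 4602 in SOD1-Nec (0.83 ± 0.26, adjusted p = 0.0792), and Ccl3 gave 0.10. Ccl6, described above, was the 1 call among 9 chemokines, where 2.16% of all genes tested in this class were called higher.

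Most genes of ribosomal proteins and of oxidative phosphorylation lay above zero in microglia-like barcodes, and a minority of them were called. Of 79 tested genes of cytosolic ribosomal proteins 15 rose, 77 were above zero and the median was 0.56, a list added after these values were seen. Rpl12, a protein of the large subunit, rose from 591 and 442 CPM to 1388 and 1147 (1.29 ± 0.29, edgeR adjusted p = 0.0137), with 824 and 449 in SOD1-Veh. The summed ribosomal share was 6.73% and 6.01% of UMIs in WT-Veh, 7.88% and 5.76% in SOD1-Veh libraries, and 9.02% and 9.29% in SOD1-Nec. Among 56 nuclear genes of oxidative phosphorylation 50 were above zero (median 0.51) and 1 rose, the complex I subunit Ndufa12 (5 and 3 UMIs against 12 and 23, 2.05 ± 0.55, adjusted p = 0.0389). Of all genes tested in this class, 51.65% were above zero and 2.16% were called higher, so 1 call among 56 did not exceed that share. The mitochondrial ribosomal RNA mt-Rnr1 rose from 4835 and 4162 CPM to 10233 and 9515 (1.13 ± 0.22, adjusted p = 0.00372). Rpl12 was not called without WT-Veh 2 (1.06) or SOD1-Nec 1 (1.12), Ndufa12 without WT-Veh 2 (1.62) or SOD1-Nec 2 (1.72), and mt-Rnr1 without SOD1-Nec 1 (1.04). Depth moved with these groups, as the median was 598 and 707 UMIs per microglia-like barcode in WT-Veh and 555.5 and 474.5 in SOD1-Nec.

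**Figure D4:**
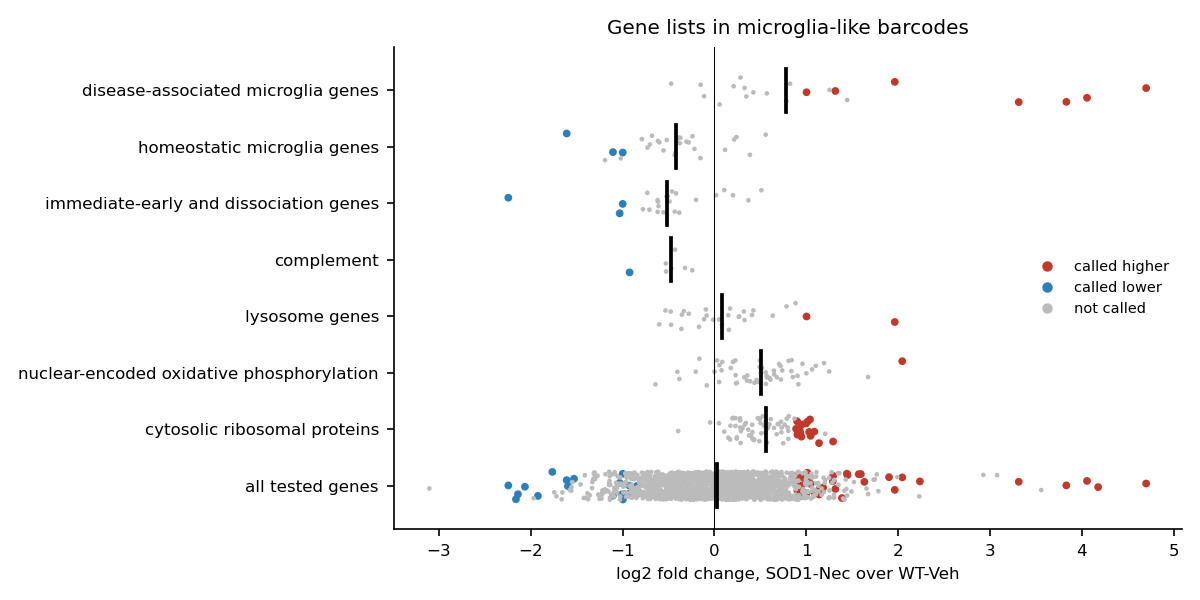
Log2 fold change of SOD1-Nec over WT-Veh for each tested gene of 7 lists and for all 1669 genes tested in microglia-like barcodes, with the list median as a black bar and called genes in red (higher) or blue (lower). Disease-associated, oxidative phosphorylation and ribosomal genes lie mostly to the right of zero (medians 0.78, 0.51 and 0.56), and homeostatic, immediate-early and complement genes mostly to the left (-0.42, -0.51 and -0.47).

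Among the remaining called genes with the largest changes were Nrp1, a semaphorin and VEGF receptor, with 6 and 12 UMIs in WT-Veh and 24 and 32 in SOD1-Nec (1.59 ± 0.40, edgeR adjusted p = 0.0245), and Fkbp5, an immunophilin induced by glucocorticoids, with 27 and 41 UMIs against 12 and 8 (-1.76 ± 0.40, adjusted p = 0.0140). The dual-specificity phosphatase Dusp6 fell from 1617 and 1493 CPM to 953 and 611 (-1.01 ± 0.26, adjusted p = 0.0272), and the histone gene H3f3b from 11022 and 9969 to 5234 and 5288 (-1.0 ± 0.22, adjusted p = 0.0137). The groups of these 4 genes did not overlap. Nrp1 was not called without WT-Veh 1 (1.23), without SOD1-Nec 1 (1.56) or without SOD1-Nec 2 (1.58), Fkbp5 without WT-Veh 2 (-1.56) or SOD1-Nec 2 (-1.31), and H3f3b without SOD1-Nec 1 (-1.03) or SOD1-Nec 2 (-1.02). Dusp6 was not called without WT-Veh 1 (-0.99), WT-Veh 2 (-1.10) or SOD1-Nec 2 (-0.72). Bola2 (1.90) and Rpn2 (1.63) also rose and Sult1a1 (-2.06), Irf2 (-1.92) and Sipa1 (-1.53) also fell, with 1 to 33 UMIs per library in these groups, and each lost its call without at least 2 of the 4 libraries. The changes that went furthest were 1.37 for Bola2 without WT-Veh 1 (2.75 without WT-Veh 2), 1.33 for Rpn2 without WT-Veh 2, -1.42 for Sult1a1 without SOD1-Nec 1 (-4.17 without SOD1-Nec 2), -1.47 for Irf2 without SOD1-Nec 2 and -1.16 for Sipa1 without WT-Veh 2 (-2.14 without SOD1-Nec 2).

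RNA typical of other cells moved with the groups in microglia-like barcodes. Haemoglobin made up 2.22% and 0.62% of their UMIs in WT-Veh, 0.29% and 0.53% in SOD1-Veh libraries, and 3.70% and 2.55% in SOD1-Nec, and the alpha chain Hba-a1 (1.44 ± 0.37, edgeR adjusted p = 0.0274), Hba-a2 (1.45 ± 0.36, 0.0245) and the beta chain Hbb-bt (1.29 ± 0.36, 0.0439) rose. These 3 changes were 2.86, 2.63 and 2.60 without WT-Veh 1 and 0.69, 0.76 and 0.56 without WT-Veh 2, where none was called, and Hba-a1 (0.99) and Hbb-bt (0.84) were not called without SOD1-Nec 1. The 14 oligodendrocyte markers, none at 0 in all libraries, summed to 9068 and 6685 CPM in WT-Veh and to 12511 and 13905 in SOD1-Nec. Of these, the myelin gene Mbp rose from 6405 and 4231 CPM to 8829 and 10338 (0.85 ± 0.23, adjusted p = 0.0396). Mbp was 0.55, 0.92 and 0.71 and not called without WT-Veh 2, SOD1-Nec 1 and SOD1-Nec 2. The 13 neutrophil markers summed to 2921 and 944 CPM in WT-Veh and to 714 and 490 in SOD1-Nec, with Cxcr2, Cd177 and Ly6g at 0. S100a8 (-2.16 ± 0.56, adjusted p = 0.0275) and S100a9 (-2.14 ± 0.51, 0.0201), calcium-binding proteins abundant in neutrophils, fell, but were -0.83 and -0.74 and not called without WT-Veh 1, and -2.91 and -2.90 without WT-Veh 2. The neuronal non-coding RNA Meg3 fell (-1.59 ± 0.39, adjusted p = 0.0237), a call lost without WT-Veh 2 (-1.12) or SOD1-Nec 1 (-1.42).

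In settings chosen after seeing the data, the microglia-like calls were recomputed on parts of the same barcodes or with genes left out. These recounts are not independent of the first test, and a kept sign is no separate support. In barcodes with at least 400 detected genes, 46 and 59 in WT-Veh and 42 and 40 in SOD1-Nec, 34 of the 54 calls were made again, 22 higher and 12 lower, and all 54 kept their sign. Apoe was 3.91, Lpl 4.47, Cd63 2.13, Lyz2 2.40, Tmem119 -1.59, Jun -1.02, C1qa -0.89 and Ctsb 1.20 there, and each was called. Mbp (0.32, edgeR adjusted p = 0.510), mt-Rnr1 (0.73), Hba-a1, Hba-a2, S100a8, S100a9 and Meg3 were not, and 8 of the 15 ribosomal calls were made again. In the larger of the 2 microglia-like clusters alone, 16 of the 54 calls were made again, 10 higher and 6 lower, and all 54 kept their sign. Ctsb (0.90) and C1qa (-0.91) were not called there. With haemoglobin and mitochondrially encoded genes taken out before scaling, 45 of the 50 calls that remained testable were made again. The part of other cells' RNA in the remaining microglial calls was not tested.

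Oligodendrocyte-like barcodes, the myelin-forming cells by their markers, were few: 28 and 23 in WT-Veh and 44 and 56 in SOD1-Nec. Of 875 genes tested, 11 rose (1.26%) and 4 fell (0.457%), and DESeq2 called 7 higher and none lower. Sod1 rose by 4.56 ± 0.39, from 745 and 118 CPM in WT-Veh to 8893 and 11293 in SOD1-Nec (edgeR adjusted p = 1.15e-28), with 6.41 without WT-Veh 1 and 3.79 without WT-Veh 2. The immediate-early transcription factors Fos and Egr1 fell. Fos stood at 2331 and 3783 CPM in WT-Veh, at 751 and 878 in SOD1-Veh, and at 832 and 243 in SOD1-Nec (-2.52 ± 0.37, adjusted p = 1.65e-09), and Egr1 at 809 and 1596, 225 and 475, and 189 and 278 (-2.34 ± 0.44, adjusted p = 1.41e-05). Both mutant groups lay below the wild type for these genes. Fos was -3.60 without SOD1-Nec 1 and -1.80 without SOD1-Nec 2 and stayed called, Egr1 was -1.72 and not called without WT-Veh 2, and DESeq2 called neither. All 7 tested immediate-early genes were below zero, with a median of -0.89 against -0.05 for all genes tested in this class.

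None of the 18 myelin genes was called in oligodendrocyte-like barcodes (edgeR, median -0.13, with 5 above and 13 below zero). Phactr3, a phosphatase and actin regulator (22 and 16 UMIs against 4 and 4, -1.99 ± 0.55, adjusted p = 0.0194), and the stress-induced kinase Sgk1 (1845 and 1537 CPM against 681 and 695, -1.29 ± 0.37, adjusted p = 0.0292) also fell. Sparc, a matrix-binding protein (1.43 ± 0.38, adjusted p = 0.0111), and Pabpc1, the poly(A)-binding protein (1.5 ± 0.35, 0.00160), rose with the mitochondrial RNAs mt-Rnr1 (1.56), mt-Rnr2 (1.12) and mt-Tp (1.96). None of these 7 calls held in every case with a library left out. Without WT-Veh 1 the calls of Phactr3 (-1.63), Sgk1 (-1.10), Sparc (1.37), Pabpc1 (1.53) and mt-Rnr2 (1.34) were lost, and without WT-Veh 2 those of Sgk1 (-1.38), Sparc (1.59), Pabpc1 (1.57), mt-Rnr1 (1.33) and mt-Rnr2 (1.01). Without SOD1-Nec 1 those of Phactr3 (-2.02), Sgk1 (-1.25), Sparc (1.48), Pabpc1 (1.51), mt-Rnr1 (1.32), mt-Rnr2 (0.97) and mt-Tp (1.19) were lost, and without SOD1-Nec 2 those of Phactr3 (-1.86), Sgk1 (-1.23), Sparc (1.49) and mt-Rnr2 (1.35), while mt-Tp was 2.57.

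The 4 haemoglobin chains also rose in oligodendrocyte-like barcodes. Hbb-bs stood at 7123 and 8217 CPM in WT-Veh, at 1954 and 2889 in SOD1-Veh, and at 25656 and 30682 in SOD1-Nec (1.88 ± 0.30, edgeR adjusted p = 1.01e-07). Hba-a1 rose by 2.28, Hba-a2 by 2.40 and Hbb-bt by 2.73, and all 4 were called with each library left out, with Hba-a2 at 3.00 without WT-Veh 2. The summed share was 0.85% and 1.04% in WT-Veh and 3.54% and 4.16% in SOD1-Nec, in the same direction as the haemoglobin share of free RNA given above. The median depth moved too, from 1198.5 and 1070 UMIs per barcode to 688.5 and 494.5. Their part in the other calls of this class was not tested.

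**Figure D5:**
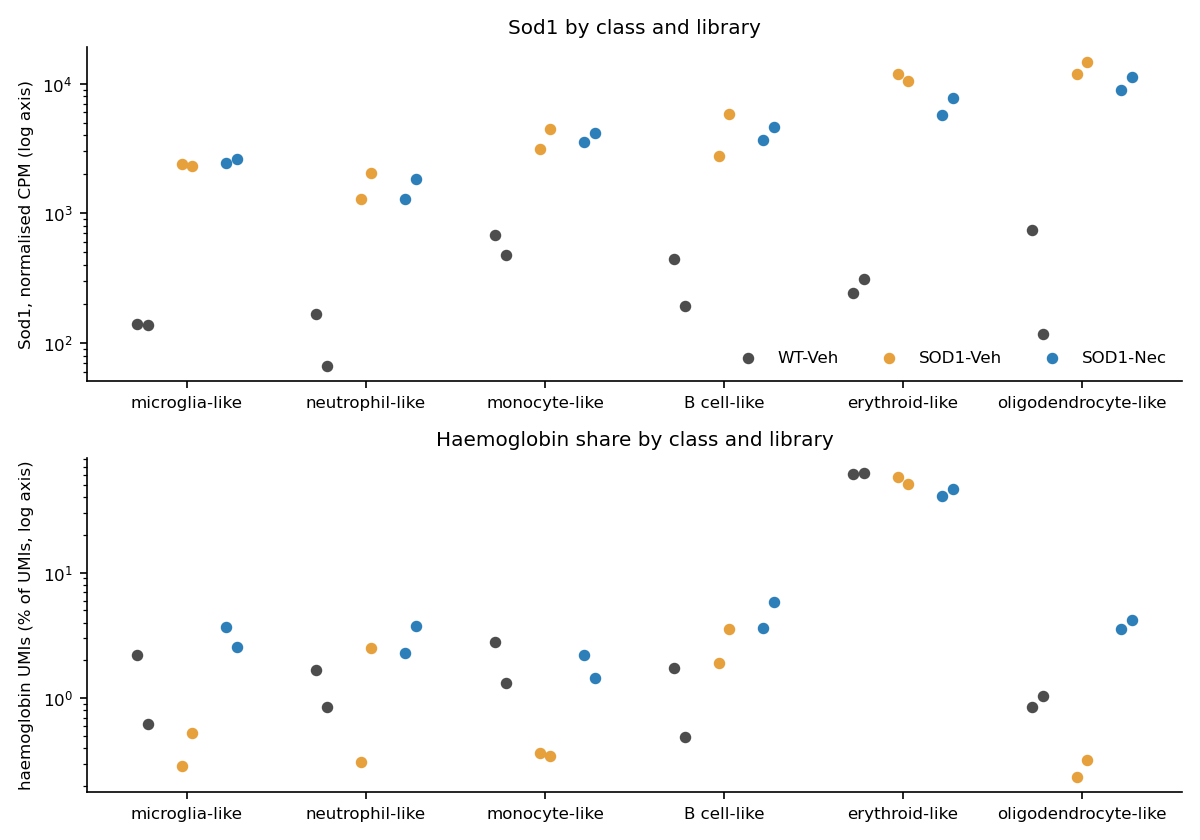
Sod1 in normalised CPM (upper panel, log axis) and haemoglobin as a percent of UMIs (lower panel, log axis) in 6 classes, with 1 point per library for WT-Veh (grey), SOD1-Veh (orange) and SOD1-Nec (blue). Sod1 is higher in every mutant library than in every wild-type library of each class, and haemoglobin in both SOD1-Nec libraries is above WT-Veh in microglia-like, oligodendrocyte-like, B cell-like and neutrophil-like barcodes, below it in erythroid-like barcodes and overlapping in monocyte-like barcodes.

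Erythroid-like barcodes, developing red cells by their markers, gave mostly lower calls. They numbered 58 and 41 in WT-Veh and 97 and 123 in SOD1-Nec, and of 1164 genes tested 2 rose (0.172%) and 38 fell (3.26%). Sod1 (245 and 310 CPM against 5688 and 7815, 4.62 ± 0.32, edgeR adjusted p = 2.77e-09) and the splicing-linked cyclophilin Ppig (5 and 3 UMIs against 34 and 31, 2.07 ± 0.52, 0.0293) rose. Alas2, which starts haem synthesis in red cells, fell from 3481 and 3811 CPM to 1157 and 1151 (-1.66 ± 0.29, adjusted p = 0.00165), with 2710 and 1429 in SOD1-Veh. Bpgm, the enzyme that makes the regulator of oxygen release 2,3-bisphosphoglycerate, fell from 1501 and 1880 CPM to 329 and 528 (-1.95 ± 0.30, adjusted p = 0.000849). The haemoglobin chains fell by 0.94 (Hba-a1), 1.15 (Hba-a2), 1.11 (Hbb-bs) and 1.15 (Hbb-bt) on the log2 scale, and their share was 61.3% and 62.1% of UMIs in WT-Veh, 58.3% and 51.1% in SOD1-Veh libraries, and 40.8% and 46.1% in SOD1-Nec. Apol11b (-3.01), Adipor1 (-2.26), the mitophagy receptor Bnip3l (-1.81) and the polyubiquitin gene Ubb (-1.77) fell as well, as did Tcp11l2 (-2.41), Bcl2l1 (-2.20) and Rnf10 (-2.0).

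The 38 lower calls were recomputed in each of the 2 clusters of the erythroid-like class. Both clusters are parts of the same barcodes, so a repeated fall is not independent support. In the cluster led by Bpgm and the haemoglobin genes, 30 of the 38 were tested and 30 fell again, with a median of -2.95, where 65 of all 191 genes tested were called lower and 22 higher. In the cluster led by Hemgn, 36 were tested and none was called by edgeR, with a median of -0.21: Alas2 was -0.47 there, Bpgm 1.55, Hba-a1 0.22, Hba-a2 0.29, Hbb-bs 0.22 and Hbb-bt 0.02. Apol11b, not tested in the first cluster, was -1.82 in the second and Ctsb -1.04, both uncalled. Sod1 rose in both, by 4.25 in the second and by 5.70 in the first. The Bpgm-led cluster held 58.6% and 61.0% of the class in WT-Veh, 14% and 17.5% in SOD1-Veh libraries, and 26.8% and 35.0% in SOD1-Nec. Its barcodes differed in quality between the groups: the median was 1947.5 and 2027 UMIs in WT-Veh and 721 and 670 in SOD1-Nec, the median mitochondrial share 2.74% and 2.69% against 12% and 10.2%, and haemoglobin 75.2% and 76.8% against 50.5% and 48.7% of UMIs. The scaling factors of edgeR for the whole class were 0.809 and 0.788 in WT-Veh and 1.32 and 1.21 in SOD1-Nec. A larger factor lowers all normalised values of a library. The part of scaling, of depth and of the mitochondrial share in these calls was not tested. Without SOD1-Nec 1 the erythroid-like calls numbered 8 and without WT-Veh 2 they numbered 20. Ppig (1.74), Hba-a1 (-0.87), Hba-a2 (-1.0), Hbb-bs (-0.99), Hbb-bt (-1.0), Bnip3l (-1.67), Ubb (-1.47), Tcp11l2 (-2.17), Bcl2l1 (-1.96) and Rnf10 (-1.61) were not called without SOD1-Nec 1. Ppig (2.01), Hba-a1 (-0.99), Hba-a2 (-1.16), Hbb-bs (-1.11), Hbb-bt (-1.15), Bcl2l1 (-1.79) and Rnf10 (-1.58) were not called without WT-Veh 2, nor Ppig (2.07), Hba-a1 (-0.96), Hbb-bs (-1.17) and Tcp11l2 (-2.46) without WT-Veh 1, nor Bcl2l1 (-2.68) without SOD1-Nec 2, where Apol11b was -4.09 and Rnf10 -2.81.

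In the 3 remaining classes Sod1 was nearly the only call. In B cell-like barcodes 2 of 961 genes rose (0.208%) and none fell. Sod1 stood at 447 and 193 CPM in WT-Veh, at 2780 and 5869 in SOD1-Veh, and at 3670 and 4623 in SOD1-Nec (3.60 ± 0.47, edgeR adjusted p = 0.00135), with 4.49 without WT-Veh 1 and 3.22 (adjusted p = 0.0629) without WT-Veh 2. Hba-a2 rose by 2.41 ± 0.42 in them (adjusted p = 0.0187), from 80 and 20 UMIs to 368 and 748, and was 3.46 without WT-Veh 1 and not called without WT-Veh 2 (1.90) or SOD1-Nec 2 (2.20). In monocyte-like barcodes Sod1 was the 1 call of 935 genes (0.107%), at 678 and 481 CPM against 3565 and 4173 (2.67 ± 0.31, adjusted p = 6.83e-08). In neutrophil-like barcodes it was the 1 call of 839 (0.119%), at 166 and 66.2 CPM against 1295 and 1823 (3.63 ± 0.45, adjusted p = 0.000686, and 4.51 without WT-Veh 1). Sod1 thus rose in each of the 6 classes tested, by 2.67 to 4.62 on the log2 scale, and no test of a difference between classes was run. In free RNA of SOD1-Nec, Sod1 stood at 5210 and 5925 CPM without edgeR scaling. That was above its level in microglia-like, B cell-like, monocyte-like and neutrophil-like barcodes and below that in oligodendrocyte-like and erythroid-like ones. The measures are unlike, since the class levels are scaled by edgeR. Haemoglobin also took 68.8% and 77.7% of free UMIs in SOD1-Nec, which lowers the free CPM of Sod1, so this ranking does not bound what free RNA could supply. The part of free RNA in the rise per class was not tested. No gene fell with edgeR in B cell-like, monocyte-like and neutrophil-like barcodes. There, 28 (2.91%), 33 (3.53%) and 46 (5.48%) genes in that order had an unadjusted p below 0.05 on the lower side, and DESeq2 called none lower.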

How the data were processed

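The deposited tables hold whole-number UMI counts per gene and cell barcode, which the authors made from Drop-seq reads on build mm9, per the submitters' processing notes; the aligner is not given in the sources used here. Genes present in all tables (17042) were kept. UMIs of the retained barcodes were summed per library and, for 6 classes with at least 20 barcodes in each compared library, per class. The sums were tested with edgeR 4.0.16 in R 4.3.3: TMM factors, filterByExpr, the quasi-likelihood F test on all 6 libraries, SOD1-Nec minus WT-Veh, and Benjamini-Hochberg adjustment over all tested genes at 0.05. DESeq2 1.42.0 was an alternative. The SE is the log2 fold change divided by the square root of F. The script was tested on simulated counts.

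Clusters came from scanpy 1.11.5 and leidenalg 0.10.2 (2000 variable genes, 30 components, 15 neighbours, resolution 1). Scrublet marked 17 of the 3055 barcodes as doublets, which were kept. Of 810 list symbols, 789 matched the tables.

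Members and lists were chosen with earlier results of these data known. Over all barcodes, the named genes are up to 15 rising and 15 falling called genes with the largest fold and no overlap between groups. The limits are 12 and 12 in microglia-like barcodes and 6 and 6 in other classes. Where fewer than 10 were called, the 4 with the smallest p on each side were added. The 3 members of a list with its lowest p-values, and fixed genes such as Ripk1, Tnf and Trem2, were also looked up. Outside this rule, and chosen after their values were seen, are, in microglia-like barcodes, Mertk, H3f3b, Rpl12, mt-Rnr1, Csf1, Cd9, Tyrobp, P2ry12, Cx3cr1, Fos, Egr1, Klf2, Atf3, Btg2, Ccl3 and C1qb. The same holds for mt-Rnr1, mt-Rnr2 and Pabpc1 in oligodendrocyte-like and Bnip3l and Hba-a1 in erythroid-like barcodes. The values of some single genes are not reported here.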

Additional observations from a re-analysis of the deposited data

Results flagged for a closer look

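Some genes were called in opposite directions in different classes, as log2 changes of SOD1-Nec over WT-Veh, and these differences between classes were not tested. Ctsb was 1.00 in microglia-like and -1.30 in erythroid-like barcodes. Hba-a1 was 1.44 in microglia-like, 2.28 in oligodendrocyte-like and -0.94 in erythroid-like barcodes. Hba-a2 was 1.45, 2.40 and -1.15 in the same classes and 2.41 in B cell-like barcodes. Hbb-bs was 1.88 in oligodendrocyte-like and -1.11 in erythroid-like barcodes, and Hbb-bt was 1.29 in microglia-like, 2.73 in oligodendrocyte-like and -1.15 in erythroid-like barcodes. In barcodes with under 100 detected genes, which entered no test, Sod1 stood at 97.8 and 78.9 CPM in the WT-Veh libraries and at 5210.3 and 5925 CPM in the SOD1-Nec libraries.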

How the results depend on the processing

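Over all barcodes, the 2 calls became 55 with DESeq2 (23 higher, 32 lower), 74 without the low-count filter, 4 at up to 40% mitochondrial UMIs, 21 with equal class shares, and 2 to 20 with a library left out (12 without SOD1-Nec 1 and 20 without SOD1-Nec 2). In microglia-like barcodes, 54 calls became 21 with DESeq2, 16 in the larger cluster alone (chosen after seeing the data) and 20 to 40 with a library left out. In erythroid-like barcodes, 40 became 67 with only the 4 compared libraries, 17 without the filter, 1 in the Hemgn-led and 87 in the Bpgm-led cluster (both chosen after seeing the data), and 8 to 33 with a library left out. In oligodendrocyte-like barcodes, 15 became 7 with DESeq2, 9 without the filter and 9 to 11 with a library left out. In B cell-like barcodes, 2 became 1 with DESeq2, 10 without the filter and 0 to 8 with a library left out (4 without WT-Veh 1, 0 without WT-Veh 2, 8 without SOD1-Nec 1 and 1 without SOD1-Nec 2). The 1 call in monocyte-like barcodes became 2 without the filter and 2 to 4 with a library left out, and the 1 call in neutrophil-like barcodes became 4 with only the 4 libraries, 6 without the filter and 4 to 7 with a library left out. The cause of these differences was not tested.

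The labels do not say that a replicate number marks a batch, although tables numbered 1 list 18169 genes and those numbered 2 list 18650. Deviations of same-numbered WT-Veh and SOD1-Nec libraries correlated at -0.14 over all barcodes and between -0.12 and 0.05 in the classes, and those of SOD1-Veh and SOD1-Nec at 0.15 over all and up to 0.22 in a class. With the replicate number as a block, the counts were 2 over all barcodes, 49 in microglia-like, 14 in oligodendrocyte-like, 40 in erythroid-like and 5 in B cell-like barcodes. Crossed numbers were added after seeing the data, with the WT-Veh and SOD1-Nec libraries only. They called 100 genes over all barcodes and 20 in oligodendrocyte-like barcodes, against 2 and 17 in those libraries without a block. These sets had the most negative WT-Veh and SOD1-Nec correlations, -0.14 and -0.12. Crossing the numbers reverses that sign, which favours more calls, so these counts cannot decide whether the numbers mark a batch.

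Class share differences, in percentage points, moved to -8.78 (microglia-like), 5.83 (erythroid-like), 0.71 (oligodendrocyte-like) and -2.10 (astrocyte-like) with at least 400 genes per barcode (where the microglia-like and oligodendrocyte-like groups overlapped). At resolution 0.5 the astrocyte-like difference was -3.74, for the merged cluster described above. Some log2 changes reversed. Ripk1 ranged from -0.60 to 0.28 with a library left out and was 0.050 with neuronal barcodes kept. In microglia-like barcodes Ccl3 ranged from -0.18 to 0.34, Tnf from -0.0044 to 0.59, Il1b from -0.024 to 2.53 and Ftl1 from -0.10 to 0.56 with a library left out. In the Hemgn-led cluster Bpgm was 1.55, Hba-a1 0.22, Hba-a2 0.29, Hbb-bs 0.22 and Hbb-bt 0.020. Of 1620 gene values recomputed, 12 reversed, 222 lost and 66 gained a call.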

Other observations

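Gene groups not described above gave few calls. In microglia-like barcodes none of 8 interferon response genes (median log2 change 0.24), 10 genes of MHC class I and peptide loading (0.06) or 10 glycolytic enzymes (0.50) was called by edgeR, against a median of 0.02 for all genes. In neutrophil-like barcodes 12 of 13 neutrophil markers were below zero (median -0.41) and none was called. In B cell-like barcodes 13 of 15 tested cell division genes were above zero (median 0.56) and none was called.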
